A study of Homo sapiens with 12 samples.

Results

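The 9 luminal transcription factor and hormone receptor genes described here were measured in 4 human breast cell lines: GATA3, FOXA1, TFAP2C, ELF3, ELF5, EHF, SPDEF, ESR1 and PGR. They were chosen by name, as 9 of the 29744 gene rows of the expression table, and all 9 had a row. The lines are described as triple-negative, and RNA was sequenced in 3 biological replicate libraries per line to judge a preparation that yields DNA, RNA and peptides from a single sample. CA1 is MCFCA1, named invasive cancer in the design, and T1 is MCFT1, named atypical hyperplasia. NeoT is MCFNeoT, named benign hyperplasia, and A10 is MCF10A, which the design calls non-tumorigenic. As background, the 4 lines so named trace back to MCF10A, an immortal mammary epithelial line that lacks the CDKN2A locus. MCFNeoT was made from it by adding a mutant HRAS, and MCFT1 and MCFCA1 descend from MCFNeoT through growth as xenografts in mice. Each line is a single cell line, so a difference between lines cannot be told apart from a difference between the cultures they were grown as.

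Luminal cells line the ducts and alveoli of the mammary gland, inside the basal layer. GATA3 and FOXA1 are factors that luminal cells need: FOXA1 opens chromatin ahead of other factors, and GATA3 and FOXA1 together let the oestrogen receptor, the product of ESR1, reach its sites. Oestrogen receptor in turn drives PGR, the progesterone receptor gene. TFAP2C encodes AP-2 gamma, which acts beside them and also activates ERBB2. ELF3, ELF5, EHF and SPDEF belong to the epithelial branch of the ETS family, where ELF5 is the regulator of the alveolar, milk-forming lineage. Triple-negative tumours are those without oestrogen receptor, progesterone receptor and amplified ERBB2.

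The libraries held 18032399 to 35730423 counts. HRAS averaged 302 CPM (counts scaled to a common library size) in CA1, 158 in T1, 239 in NeoT and 64.5 in A10. E-cadherin (CDH1), which defines epithelial cells, averaged 362 CPM in CA1, 645 in T1, 0.691 in NeoT and 313 in A10, so the NeoT libraries held little of this marker. Whether these libraries came from the labelled line cannot be settled from the data, and NeoT in what follows means the libraries labelled so. The summed level of 5 fibroblast markers was 3.37 to 4.57 CPM in CA1, 1.60 to 2.45 in T1, 611 to 678 in NeoT and 73.0 to 78.9 in A10, and nearly all of it in NeoT was DCN, at 632 ± 34.0 CPM. The leukocyte genes PTPRC and CD3E had 0 counts in all 12 libraries, and the summed level of 5 leukocyte markers was 18.4 to 21.8 CPM in CA1, 88.4 to 98.8 in T1, 51.9 to 55.6 in NeoT and 61.7 to 65.8 in A10, nearly all of it CD14. The sum of 4 endothelial markers was 23.7 to 25 CPM in CA1, 82.7 to 90.5 in T1, 2.59 to 3.49 in NeoT and 7.14 to 10.3 in A10, in CA1 and T1 nearly all PECAM1. The sum of 4 adipocyte markers was 4.44 to 6.39 CPM in CA1, 0.640 to 0.949 in T1, 35.1 to 46.6 in NeoT and 0.0361 to 0.409 in A10, with ADIPOQ at 0 counts in every library. Cytoplasmic rRNA took 7.76% of counts in T1 replicate 1 and 0.954% to 2.18% in the other libraries. The part of these differences in the results below was not tested. Fits of only the 2 lines compared, which leave NeoT out of CA1 or T1 against A10, called the same number of the genes described here.

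Of the 9 genes, 5 were clearly expressed in at least 3 lines, SPDEF and ESR1 were present at about 1 CPM, and ELF5 and PGR were at or near 0. GATA3, FOXA1, TFAP2C and ELF3 were 2.19-fold to 4.76-fold higher in CA1 than in A10 and 1.78-fold to 4.53-fold higher in T1 than in A10. In NeoT, FOXA1, ELF3 and EHF were 6.27-fold, 29.98-fold and 8.26-fold lower than in A10, ESR1 had no count, and TFAP2C was 2.24-fold higher. The 7 genes that passed the expression filter all differed among the 4 lines, where 89.8% of the 14417 tested genes did. SPDEF had counts in CA1 and T1 alone. In bulk RNA, fewer cells of a type and less RNA per cell cannot be told apart. Values are CPM, folds and log2 differences are fitted values, adjusted p is from edgeR's quasi-likelihood test with Benjamini-Hochberg adjustment, and called means an adjusted p under 0.05. Where a line had 0 counts in its 3 libraries, a level up to that of 3 counts over the line is possible, which is 0.0463 CPM in CA1, 0.0356 in T1, 0.0474 in NeoT and 0.0326 in A10, and folds against such a line are lower bounds. These floors cover counting error only.

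**Figure D1:**
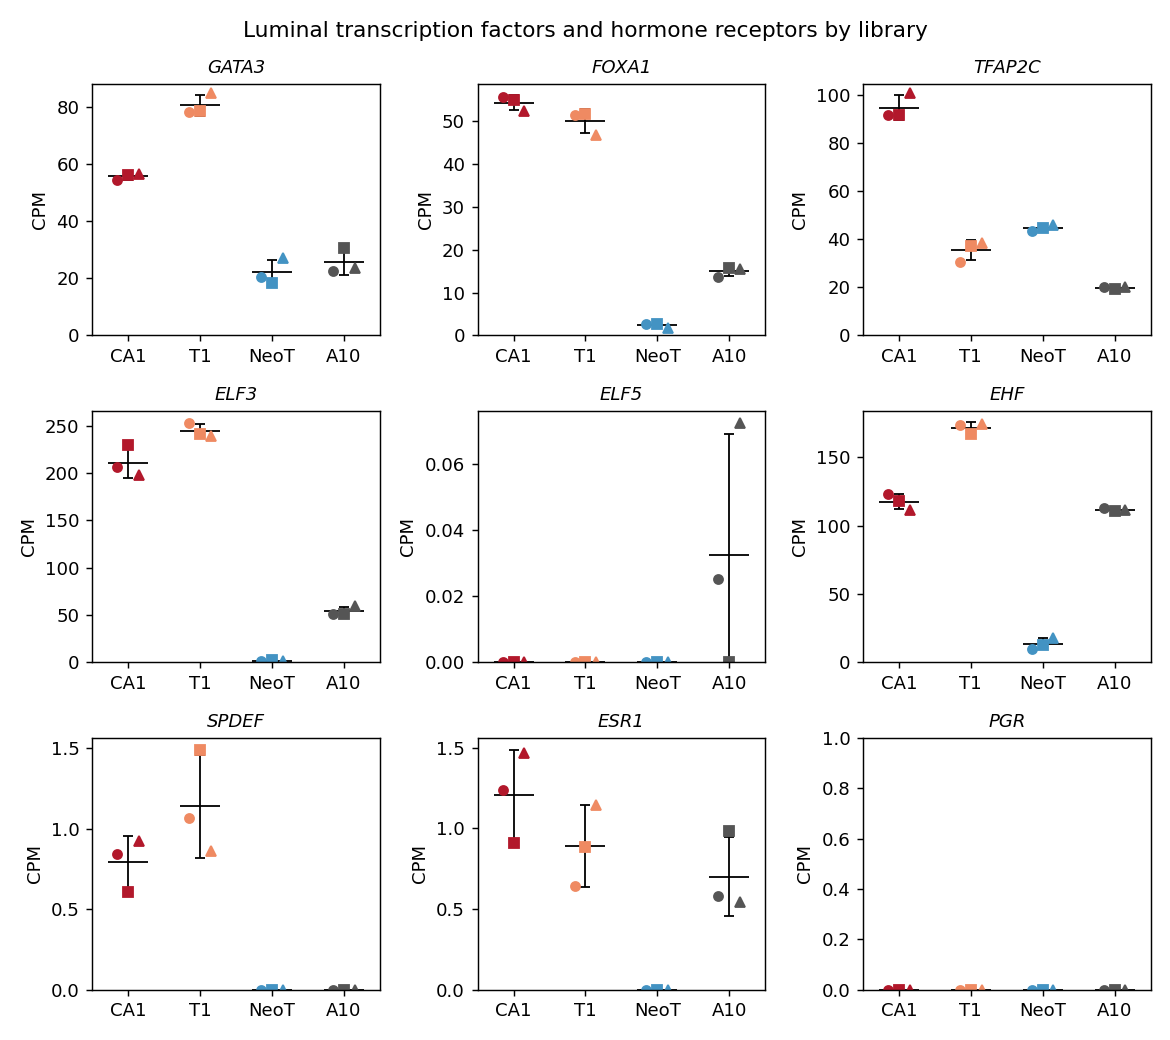
CPM of the 9 genes in each of 12 libraries (circle, square and triangle for replicates 1, 2 and 3), with the mean as a long bar and the SD as the error bar, n = 3 a line, each panel on its own linear scale from 0. ELF3 and FOXA1 sit highest in CA1 and T1 and lowest in NeoT, SPDEF has points above 0 in CA1 and T1 alone, and PGR is at 0 throughout.

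Of the 7 tested genes, 5 were called higher and 0 lower in CA1 than in A10, where 70.9% of all tested genes were called, 34.4% higher and 36.5% lower. In T1 against A10, 6 were higher and 0 lower, beside 51.9% of all genes called, 26.0% higher and 25.9% lower. NeoT against A10 had 1 higher and 4 lower, beside 70.4% called, 33.7% higher and 36.7% lower; SPDEF was at 0 in both of these lines and GATA3 was not called. Between CA1 and T1, 1 was higher and 3 lower in CA1, beside 62.2% called, 30.4% higher and 31.9% lower. All 7 were higher in CA1 than in NeoT, beside 66.4% called, 33.8% higher and 32.7% lower. In T1 against NeoT, 6 were higher and 1 lower, beside 67.4% called, 35.0% higher and 32.4% lower. The median log2 difference of the 7 was 1.87 in CA1 against A10, 1.66 in T1 against A10 and -2.65 in NeoT against A10, while that of all genes was -0.02, -0.01 and -0.04. The 3 comparisons with A10 share its libraries, as the 3 with NeoT share those of NeoT.

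GATA3 (chromosome 10, 8045333 to 8075198, plus strand, GRCh38.p14), a zinc finger factor that maintains luminal identity, was present in every line. It stood at 54.2, 56.1 and 56.4 CPM in CA1, at 78.3, 78.5 and 84.7 in T1, at 20.5, 18.4 and 27.0 in NeoT, and at 22.5, 30.7 and 23.4 in A10. All libraries of T1 lay above all of CA1, these lay above all of A10 and NeoT, and the last 2 lines overlapped. GATA3 was 2.19-fold higher in CA1 than in A10 (log2 1.13, SE 0.12, adjusted p = 2.21e-07) and 3.17-fold higher in T1 than in A10 (adjusted p = 2.46e-09). NeoT and A10 differed by -0.22 on the log2 scale, which missed the threshold (SE 0.13, adjusted p = 0.140). Without NeoT replicate 3, the library with the highest GATA3 of its line, that difference was -0.38 and was called (adjusted p = 0.00246). Between the xenograft-passaged lines, GATA3 was 1.45-fold lower in CA1 than in T1 (adjusted p = 8.66e-04). The antisense gene GATA3-AS1, which lies within the span of GATA3, averaged 0.05 CPM in CA1, 0.06 in T1, 0 in NeoT and 0.09 in A10. Whether the counting used strand is not given, so antisense reads counted under GATA3 cannot be told from these values.

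FOXA1 (chromosome 14, 37589552 to 37595249, minus strand) split the lines into 3 levels. Its values were 55.7, 55.0 and 52.4 CPM in CA1, 51.6, 51.7 and 46.8 in T1, 2.53, 2.67 and 1.80 in NeoT, and 13.6, 15.7 and 15.5 in A10. CA1 and T1 were high, A10 was intermediate and NeoT was low, with no overlap between any of the lines. The gene was 3.65-fold higher in CA1 than in A10 (log2 1.87, SE 0.10, adjusted p = 7.54e-12), 3.36-fold higher in T1 than in A10 (adjusted p = 4.44e-11) and 6.27-fold lower in NeoT than in A10 (adjusted p = 2.33e-12). CA1 and T1 differed by 0.12 (SE 0.09), which missed the threshold (adjusted p = 0.285) although the libraries did not overlap. Against NeoT, FOXA1 was 22.9-fold higher in CA1 and 21.1-fold higher in T1 (adjusted p = 3.52e-16 and 7.59e-16).

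TFAP2C (chromosome 20, 56629306 to 56639283, plus strand) followed another order, with CA1 alone at the top. It had 91.8, 91.6 and 101 CPM in CA1, 30.7, 37.4 and 38.5 in T1, 43.3, 44.7 and 46.0 in NeoT, and 20.2, 19.2 and 20.3 in A10. No 2 lines overlapped, and all 3 derived lines lay above A10. The gene was 4.76-fold higher in CA1 than in A10 (log2 2.25, SE 0.09, adjusted p = 1.21e-13), 1.78-fold higher in T1 than in A10 (adjusted p = 2.89e-07) and 2.24-fold higher in NeoT than in A10 (adjusted p = 1.43e-09). It was the only tested gene of the 9 called higher in NeoT than in A10 and the only one called higher in CA1 than in T1, by 2.67-fold (adjusted p = 1.18e-10). T1 was 1.26-fold lower than NeoT (log2 -0.33, SE 0.09, adjusted p = 0.00293), the only call in that direction among the 7 tested.

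ELF3 (chromosome 1, 202010587 to 202017183, plus strand), an ETS factor of differentiating epithelia, had the widest range of the 9. It stood at 206, 229 and 197 CPM in CA1, 253, 242 and 239 in T1, 1.74, 2.16 and 1.39 in NeoT, and 51.6, 50.7 and 59.5 in A10. T1 and CA1 were high, A10 lay well below them, and NeoT was close to 0 without reaching it. ELF3 was 3.91-fold higher in CA1 than in A10 (log2 1.97, SE 0.08, adjusted p = 2.98e-13), 4.53-fold higher in T1 than in A10 (adjusted p = 1.68e-13) and 29.98-fold lower in NeoT than in A10 (log2 -4.91, SE 0.12, adjusted p = 1.08e-16). The difference from NeoT reached 117-fold in CA1 and 136-fold in T1 (adjusted p = 4.95e-19 and 3.72e-19). ELF3 was 1.16-fold lower in CA1 than in T1 (log2 -0.21, SE 0.08, adjusted p = 0.0278). That call was lost without CA1 replicate 1, CA1 replicate 3, T1 replicate 1 or T1 replicate 2 (adjusted p = 0.0910, 0.137, 0.0913 and 0.0569).

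EHF (chromosome 11, 34621093 to 34663288, plus strand), a close relative of ELF3 expressed in epithelia, was low in NeoT, while its CA1 and A10 libraries overlapped. Its values were 123, 118 and 111 CPM in CA1, 174, 166 and 174 in T1, 10.1, 12.9 and 18.1 in NeoT, and 113, 110 and 112 in A10. T1 was highest and NeoT lowest. In NeoT the gene was 8.26-fold lower than in A10 (log2 -3.05, SE 0.13, adjusted p = 1.37e-12), and in T1 it was 1.53-fold higher than in A10 (adjusted p = 2.03e-04). CA1 and A10 differed by 0.07 (SE 0.11), which was not called (adjusted p = 0.592). EHF was 1.46-fold lower in CA1 than in T1 (adjusted p = 5.07e-04).

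SPDEF (chromosome 6, 34537802 to 34556329, minus strand), an ETS factor of secretory luminal and goblet cells, was found in the xenograft-passaged lines alone. Its counts were 15, 14 and 22 in the CA1 libraries, 30, 47 and 21 in T1, and 0 in each library of NeoT and A10. These counts are 0.790 ± 0.166 CPM in CA1 and 1.14 ± 0.320 in T1, so the expression was low. SPDEF was at least 24.2-fold higher in CA1 than in A10 (adjusted p = 3.05e-05) and at least 34.9-fold higher in T1 than in A10 (adjusted p = 1.98e-05). Against NeoT it was at least 16.7-fold higher in CA1 and at least 24.0-fold higher in T1 (adjusted p = 8.07e-05 and 2.81e-05). CA1 and T1 overlapped and differed by -0.53 (SE 0.55, adjusted p = 0.425). ELF5 (chromosome 11, 34478791 to 34513794, minus strand) had 1, 0 and 2 counts in the A10 libraries and 0 counts in the 9 libraries of the derived lines. It did not pass the expression filter, and no difference was detectable at this depth.

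ESR1 (chromosome 6, 151656672 to 152129619, plus strand), the gene of the oestrogen receptor, had few counts in 3 lines and none in NeoT. The libraries held 22, 21 and 35 counts in CA1, 18, 28 and 28 in T1, 0, 0 and 0 in NeoT, and 23, 24 and 15 in A10. In CPM these were 1.20 ± 0.282 in CA1, 0.890 ± 0.252 in T1 and 0.700 ± 0.244 in A10, and the 3 lines overlapped. CA1 differed from A10 by 0.79 (SE 0.51, adjusted p = 0.177) and T1 from A10 by 0.35 (SE 0.51, adjusted p = 0.595), neither of them called. NeoT was at least 14.8-fold lower than A10 (adjusted p = 2.89e-05), and CA1 and T1 were at least 25.4-fold and 18.8-fold higher than NeoT (adjusted p = 5.83e-06 and 1.46e-05). SYNE1, which overlaps the end of ESR1 on the other strand, averaged 1.48 CPM in CA1, 5.65 in T1, 5.50 in NeoT and 8.36 in A10, and whether the counting used strand is not given in the sources used here. PGR (chromosome 11, 101029624 to 101129813, minus strand), the progesterone receptor gene, had 0 counts in all 12 libraries. The third gene of the triple-negative definition, ERBB2, was the abundant one: 202 ± 11.1 CPM in CA1, 200 ± 10.4 in T1, 58.5 ± 4.21 in NeoT and 77.8 ± 3.93 in A10 (SD, n = 3). It was 2.59-fold higher in CA1 than in A10 (adjusted p = 5.86e-12), 2.57-fold higher in T1 than in A10 (adjusted p = 1.60e-11) and 1.33-fold lower in NeoT than in A10 (adjusted p = 6.85e-05).

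**Figure D2:**
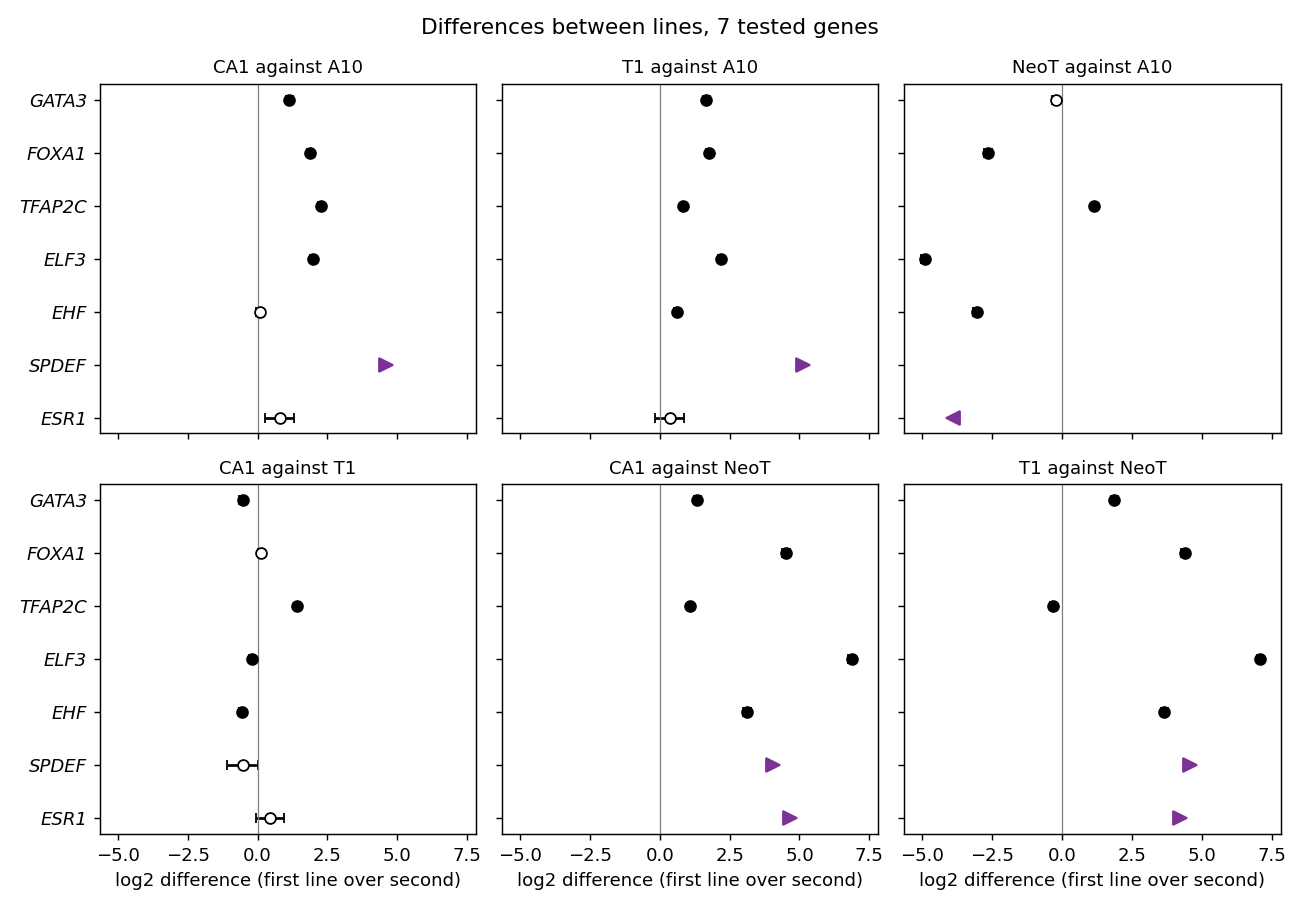
Fitted log2 difference (first line over second) of the 7 tested genes in 6 comparisons, with the SE as the error bar; filled circles were called and open circles were not, and purple triangles are lower bounds on the size of a difference from a line with 0 counts. FOXA1, ELF3 and EHF lie left of 0 in NeoT against A10 at -2.65, -4.91 and -3.05, and TFAP2C lies right of 0 in every comparison except T1 against NeoT.

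Per kilobase of transcript (the longest principal transcript of GENCODE v29), the order of the genes differed between lines. In T1 EHF led with 54.4 CPM per kb, followed by ELF3 with 49.0, GATA3 with 30.4, FOXA1 with 17.5 and TFAP2C with 12.4. In CA1 ELF3 led with 42.2 CPM per kb, followed by EHF with 37.2, TFAP2C with 33.1, GATA3 with 21.0 and FOXA1 with 19.0. In NeoT TFAP2C led with 15.6 CPM per kb and GATA3 followed with 8.30, while EHF had 4.34, FOXA1 0.816 and ELF3 0.353. In A10 EHF stood first with 35.4 CPM per kb, ahead of ELF3 with 10.8, GATA3 with 9.63, TFAP2C with 6.94 and FOXA1 with 5.21. SPDEF and ESR1 stayed at or below 0.600 CPM per kb in each line. TFAP2C and GATA3 made up most of the per-length level of these genes in NeoT, and the ETS genes ELF3 and EHF made up most of it in CA1, T1 and A10.

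Across the 12 libraries the patterns of the genes formed groups that share the 4 lines, so the correlations describe line differences and carry no p. FOXA1 and ELF3 were most alike (Pearson r of log2 CPM 0.991), and ELF3 had r = 0.963 with EHF and 0.954 with ESR1. GATA3 was closest to SPDEF (r = 0.953). TFAP2C had r between -0.0789 with EHF and 0.579 with SPDEF. Among protein-coding genes that reached a line mean of at least 10 CPM, the closest to FOXA1 were RBM47, SPINT2 and MGP (r = 0.996, 0.996 and 0.995), and the closest to ELF3 were MYO5B, NRP2 and CLDN7 (r = 0.997 each). SPINT2 encodes an inhibitor of serine proteases at the epithelial surface and CLDN7 a claudin of cell junctions. ARHGDIB, MARVELD2 and PNLIPRP3 were closest to EHF (r = 0.996, 0.996 and 0.995), MARVELD2 being a protein of tricellular junctions. For GATA3 they were VLDLR, ODC1 and NFIB (r = 0.986, 0.983 and 0.979), and for TFAP2C they were NT5E, FBXL5 and EPHA4 (r = 0.992, 0.989 and 0.988). The genes closest to SPDEF were GRHL2, CAMK2G and ERMP1 (r = 0.989, 0.985 and 0.984). GRHL2, an epithelial identity factor, had 39.3 CPM in CA1, 59.0 in T1 and 0 counts in NeoT and A10. CAMK2G averaged 65.7 CPM in CA1, 77.0 in T1, 29.2 in NeoT and 23.4 in A10. ERMP1 averaged 270 CPM in CA1, 323 in T1, 86.5 in NeoT and 62.0 in A10. ELMO3, CTNND1 and RASSF6 were closest to ESR1 (r = 0.984, 0.983 and 0.982). Of these 21 genes, 14 were also among the 100 closest by Spearman's rho, but none of the 3 named for FOXA1 (ranks 117 to 902) or for EHF (ranks 112 to 345) was, nor was RASSF6 for ESR1 (rank 285).

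Promoter sequences from RefSeq (GRCh38.p14, 250 bases before to 50 after the start) were at hand for 8 of the 9 genes, while TFAP2C had no entry. Each gene had 1 window, and other starts of the same gene were not searched. The windows of EHF, ELF5 and PGR lie inside the gene spans given above, and that of ESR1 lies at the outer edge of its span. The counts below hold for these windows alone. Those of 4 genes are shown because their RNA separated the lines: FOXA1, ELF3 and EHF, which were low but not at 0 in NeoT, and SPDEF, counted in CA1 and T1 alone. Capitals mark the ETS match GGAAG on either strand (CTTCC when read on the strand shown). GGAAG is a longer form of the ETS core GGAA, and other forms were not searched or marked. The strand shown is that of the gene. The windows are chr14:37595200-37595499 (minus), chr1:202010337-202010636 (plus), chr11:34624007-34624306 (plus) and chr6:34556280-34556579 (minus).
FOXA1: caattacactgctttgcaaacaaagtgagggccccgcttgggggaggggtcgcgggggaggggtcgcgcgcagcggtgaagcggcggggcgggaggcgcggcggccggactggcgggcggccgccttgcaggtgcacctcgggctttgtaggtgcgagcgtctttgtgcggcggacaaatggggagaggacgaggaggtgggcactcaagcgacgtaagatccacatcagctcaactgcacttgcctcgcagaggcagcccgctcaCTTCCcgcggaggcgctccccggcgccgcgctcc
ELF3: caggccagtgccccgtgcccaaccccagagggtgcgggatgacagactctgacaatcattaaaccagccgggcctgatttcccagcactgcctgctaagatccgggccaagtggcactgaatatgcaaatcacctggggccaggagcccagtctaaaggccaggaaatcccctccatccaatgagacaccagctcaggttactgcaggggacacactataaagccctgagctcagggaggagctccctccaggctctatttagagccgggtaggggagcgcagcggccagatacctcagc
EHF: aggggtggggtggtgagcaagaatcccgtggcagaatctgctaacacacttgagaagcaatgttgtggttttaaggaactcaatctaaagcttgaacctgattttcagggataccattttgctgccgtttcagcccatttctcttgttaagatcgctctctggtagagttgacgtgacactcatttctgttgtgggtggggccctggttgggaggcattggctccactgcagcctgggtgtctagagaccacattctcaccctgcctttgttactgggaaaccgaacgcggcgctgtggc
SPDEF: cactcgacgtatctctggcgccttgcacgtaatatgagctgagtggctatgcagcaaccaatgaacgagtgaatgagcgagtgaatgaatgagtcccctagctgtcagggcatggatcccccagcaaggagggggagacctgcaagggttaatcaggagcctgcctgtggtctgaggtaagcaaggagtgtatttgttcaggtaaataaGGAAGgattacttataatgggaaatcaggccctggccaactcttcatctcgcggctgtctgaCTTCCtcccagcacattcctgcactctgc
The FOXA1 window holds 1 ETS match, 17 bases into the transcript, and the SPDEF window holds 2, 41 bases before the start and 22 bases after it. Those of ELF3 and EHF, themselves ETS genes, hold no GGAAG on either strand, while 71.9% of 27305 promoters do. The ELF3 and EHF windows do hold the core GGAA followed by other bases. Among the promoters not printed, GATA3 had 4 ETS matches, ELF5 2, ESR1 1 and PGR 1. A forkhead match (TGTTTAC, either strand) was found in ELF5 alone and in 3.41% of all promoters, and a TFAP2 match (GCC, any 3 bases, GGC) in GATA3 and PGR and in 23.0% of all promoters. None of the 8 windows held the GATA letters AGATAA (10.5% of all promoters) or an oestrogen response element (GGTCA, any 3 bases, TGACC; 0.0659%). CpG pairs numbered 34 in FOXA1, 16 in GATA3, 15 in PGR, 8 in EHF, 8 in SPDEF, 7 in ELF3, 4 in ESR1 and 2 in ELF5, beside a median of 14 over all promoters (quartiles 3 and 28). FOXA1 was the only gene of the 8 above the upper quartile. A match of letters is a description and not a binding site.

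The genes beside these 9 on the chromosome went both ways. Taking up to 3 neighbours on each side, without the overlapping genes GATA3-AS1 and SYNE1, gave 48 genes, of which 25 were tested. Of these, 10 were called higher and 10 lower in CA1 than in A10, 7 and 8 in T1 than in A10, and 9 and 9 in NeoT than in A10. All tested genes were also split about evenly, with 34.4% higher and 36.5% lower in CA1, 26.0% and 25.9% in T1, and 33.7% and 36.7% in NeoT. SYNE1, which overlaps ESR1, was called lower than A10 in all 3 derived lines (adjusted p = 7.11e-09 in CA1, 0.0168 in T1 and 0.00808 in NeoT), and GATA3-AS1 was not tested. Beside FOXA1, TTC6, which begins 0.4 kb from its start, averaged 0.519 CPM in CA1, 0.486 in T1, 0 in NeoT and 0.157 in A10. TTC6 was called lower in NeoT than in A10 (adjusted p = 0.0194) and higher in CA1 than in NeoT (adjusted p = 0.00134), but the difference between CA1 and A10 was not called (adjusted p = 0.0868). MIPOL1, on the other side of FOXA1 at 37.2 kb, went another way, with 14.6 CPM in CA1, 11.6 in T1, 16.0 in NeoT and 7.17 in A10. Next to ELF3, RNPEP at 4.4 kb averaged 198 CPM in CA1, 166 in T1, 138 in NeoT and 423 in A10, and TIMM17A at 39.9 kb averaged 45.6 CPM in CA1, 62.0 in T1, 49.9 in NeoT and 114 in A10. Both were called lower than A10 in all 3 derived lines, whereas ELF3 was lower in NeoT alone. ELF5 lies 107.3 kb from EHF. CAT, the catalase gene, lies 6.7 kb from ELF5 and 149.0 kb from EHF. CAT averaged 46.2 CPM in CA1, 65.8 in T1, 39.4 in NeoT and 35.6 in A10 while ELF5 was at or near 0.

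**Figure D3:**
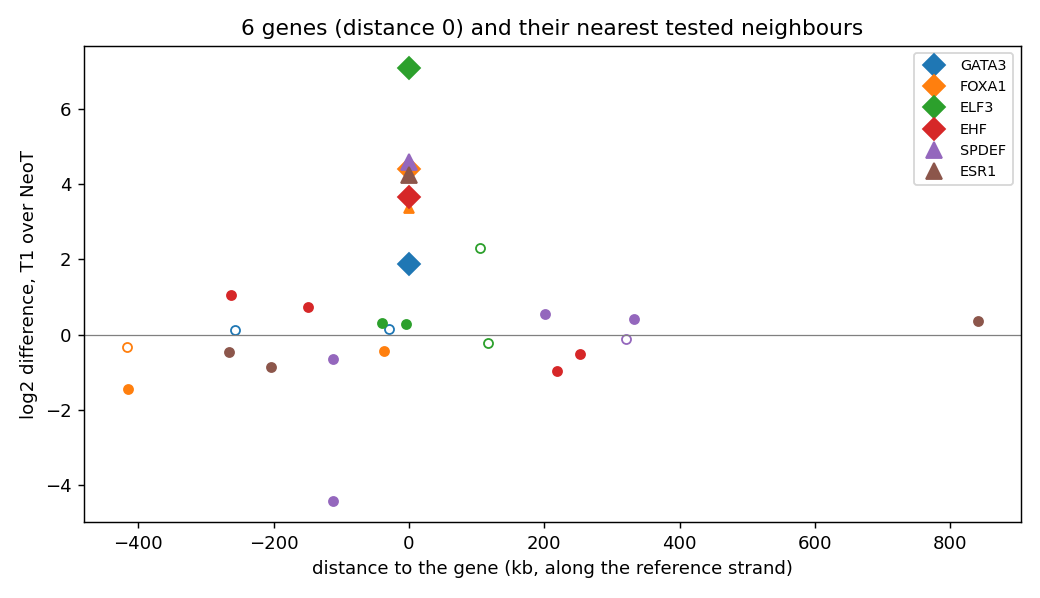
Fitted log2 difference of T1 over NeoT for 6 of the genes (large symbols at distance 0; diamonds are fitted values, triangles lower bounds) and for their tested neighbours in the same colour, by distance in kb; filled small symbols were called, open ones were not, and a small triangle is a bound. The 6 genes lie between 1.88 (GATA3) and 7.09 (ELF3), and apart from TTC6 beside FOXA1 the called neighbours lie between -4.41 (RPS10-NUDT3) and 1.04 (ABTB2).

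Relatives within the same families were called in both directions. For this list and those that follow, the shares of all tested genes called higher and lower are those given with the neighbours. A split in both directions is therefore not particular to a list. Of 14 paralogs in the GATA, FOXA, TFAP2 and ELF families, 7 were tested and 4 had 0 counts throughout; 2 were higher and 4 lower in CA1 than in A10, 1 and 3 in T1 than in A10, and 1 and 3 in NeoT than in A10. TFAP2A, the other AP-2 gene of mammary epithelium, stood at 89.1 ± 3.79 CPM in CA1, 116 ± 1.38 in T1, 62.6 ± 3.63 in NeoT and 116 ± 6.46 in A10. It was 1.30-fold lower in CA1 (adjusted p = 8.01e-05) and 1.85-fold lower in NeoT (adjusted p = 1.59e-09) than in A10, comparisons in which TFAP2C was higher. GATA6 was higher than A10 in all 3 derived lines, at 29.7 ± 1.97 CPM in CA1, 17.0 ± 1.37 in T1, 18.3 ± 2.01 in NeoT and 12.6 ± 0.820 in A10 (2.36-fold in CA1, adjusted p = 1.15e-08). The ubiquitous ETS gene ELF1 was 2.46-fold lower in NeoT than in A10 (adjusted p = 1.85e-10). ELF4 was 1.23-fold higher in CA1 than in A10 (adjusted p = 0.00240) and lower in T1 and NeoT than in A10.

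Of 15 other hormone receptor genes, 13 were tested: 5 were higher and 4 lower in CA1 than in A10, 6 and 3 in T1 than in A10, and 7 and 3 in NeoT than in A10. VDR, the vitamin D receptor gene, stood at 43.0, 44.3 and 44.1 CPM in CA1, 89.3, 98.7 and 92.4 in T1, 14.7, 14.9 and 11.4 in NeoT, and 104, 99.5 and 105 in A10. It was 7.47-fold lower in NeoT than in A10 (adjusted p = 3.35e-15) and 2.35-fold lower in CA1 than in A10 (adjusted p = 2.07e-10). The thyroid hormone receptor genes went opposite ways in CA1, where THRA was 2.88-fold lower and THRB 3.07-fold higher than in A10 (adjusted p = 2.57e-08 and 1.24e-10). In NeoT both were higher than in A10, THRA by 4.17-fold and THRB by 1.24-fold (adjusted p = 3.91e-11 and 0.0153). RARG, a retinoic acid receptor gene, was 1.68-fold higher in CA1 than in A10 (adjusted p = 1.44e-06).

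Genes that respond to oestrogen in receptor-positive breast cells were called in both directions, as all tested genes were. Of 18 such genes 14 were tested, and TFF1, RET and CXCL12 had 0 counts in all libraries. The tested genes included 4 higher and 8 lower in CA1 than in A10, 3 and 6 in T1 than in A10, and 6 and 6 in NeoT than in A10, with medians of -0.81, -0.47 and 0.17 on the log2 scale. CA12, a carbonic anhydrase, was lower than A10 in each derived line, at 10.4 ± 1.01 CPM in CA1, 41.4 ± 0.999 in T1, 101 ± 1.90 in NeoT and 145 ± 1.99 in A10 (13.9-fold lower in CA1, adjusted p = 2.04e-17). SERPINA1 was 5.52-fold lower in T1 and 6.09-fold lower in NeoT than in A10 (adjusted p = 1.70e-15 and 2.79e-16), and IRS1 was 3.93-fold higher in NeoT and 6.07-fold lower in CA1 than in A10 (adjusted p = 1.63e-12 and 8.11e-13). IGFBP4 was 7.78-fold higher in CA1, 11-fold lower in T1 and 6.24-fold higher in NeoT than in A10 (adjusted p = 8.74e-12, 1.46e-09 and 4.31e-11). AREG, the EGFR ligand that carries the oestrogen signal between cells of the gland, was higher than A10 in all 3 derived lines, at 640 ± 25.6 CPM in CA1, 634 ± 9.97 in T1, 885 ± 68.7 in NeoT and 436 ± 23.0 in A10.

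Partners and coregulators of these factors were all detected, and 14 of 14 were tested. Against A10, 4 were higher and 8 lower in CA1, 6 and 5 in T1, and 6 and 7 in NeoT, with medians of -0.34, 0.16 and -0.01. RUNX1, a luminal factor that binds beside oestrogen receptor, was 1.78-fold higher in CA1 than in A10 and 1.72-fold lower in NeoT than in A10 (adjusted p = 1.58e-08 and 5.32e-08), while its partner gene CBFB was lower in every derived line. TBX3 was 10.3-fold higher in NeoT than in A10 (105 ± 9.24 CPM in NeoT, against 10.2 ± 0.336 in A10, adjusted p = 2.34e-15). NCOA3, a steroid receptor coactivator, was 2.30-fold higher in NeoT and 2.19-fold lower in CA1 than in A10 (adjusted p = 1.23e-10 and 4.46e-10).

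Luminal structural and surface genes include keratins, claudins and surface proteins of the inner layer. Of 12 in the list 10 were tested: 8 were higher and 2 lower in CA1 than in A10, 10 and 0 in T1 than in A10, and 2 and 7 in NeoT than in A10, with medians of 2.77, 2.13 and -2.78. The summed level of the 12 was 14085 to 15310 CPM in CA1, 9296 to 9857 in T1, 3471 to 3696 in NeoT and 3079 to 3457 in A10. The sum, which the most abundant genes dominate, was thus not lower in NeoT than in A10. EPCAM, an adhesion protein of simple epithelia, stood at 395 ± 13.1 CPM in CA1, 239 ± 5.41 in T1, 7.24 ± 0.80 in NeoT and 41.7 ± 0.937 in A10. MUC1 went against the list in CA1, with 0.536 ± 0.279 CPM there, 213 ± 13.8 in T1, 11.8 ± 0.704 in NeoT and 175 ± 11.1 in A10 (339-fold lower in CA1 than in A10, adjusted p = 4.15e-18). CD24 was likewise lower in CA1 than in A10, by 3.38-fold (adjusted p = 3.49e-13), and higher in T1, by 3.65-fold (adjusted p = 2.72e-13). Of the secretory genes 3 of 10 were tested. Against A10, 2 were higher and 1 lower in CA1, 3 and 0 in T1, and 0 and 2 in NeoT. Among them AGR2, a secretory pathway protein of luminal cells, stood at 19.4, 17.0 and 16.8 CPM in CA1, 24.8, 25.3 and 29 in T1, 0 in NeoT, and 0.276, 0.123 and 0.578 in A10. It was 53.5-fold higher in CA1 and 79.4-fold higher in T1 than in A10 (adjusted p = 4.06e-12 and 2.36e-12), in the lines that also had SPDEF.

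Of 15 luminal progenitor and alveolar genes, the lineage that ELF5 directs, 6 had 0 counts in every library and 9 were tested. Against A10, 3 were higher and 5 lower in CA1, 3 and 3 in T1, and 1 and 7 in NeoT, with medians of -1.72, -0.04 and -1.69. ALDH1A3, an aldehyde dehydrogenase of progenitors, was 53.1-fold lower in NeoT than in A10 (8.99 ± 0.772 CPM in NeoT, against 478 ± 14.3 in A10, adjusted p = 2.13e-20) and 3.26-fold higher in CA1 than in A10 (adjusted p = 1.10e-14). XDH was 53.9-fold lower in NeoT than in A10 (adjusted p = 2.65e-18). SLPI was 5.13-fold lower in CA1 and 3.22-fold lower in NeoT than in A10 (adjusted p = 4.04e-14 and 3.13e-12), and CD14, also a marker of monocytes, was 3.30-fold lower in CA1 than in A10 (adjusted p = 1.47e-12).

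Of 10 regulators of the basal layer, 7 were tested: 3 were higher and 3 lower in CA1 than in A10, 4 and 3 in T1 than in A10, and 1 and 3 in NeoT than in A10. TP63, the defining factor of basal cells, stood at 27.1 ± 2.23 CPM in CA1, 41.8 ± 1.83 in T1, 0 in NeoT and 107 ± 2.22 in A10, and was 3.92-fold lower in CA1 and 2.55-fold lower in T1 than in A10 (adjusted p = 2.80e-12 and 5.41e-10). SNAI2 was also lower in CA1 and T1 than in A10, by 4.33-fold and 1.94-fold, and 2.60-fold higher in NeoT than in A10 (adjusted p = 4.06e-13, 2.33e-08 and 3.69e-11). SOX9, which luminal progenitors also use, was 10.1-fold higher in CA1 and 7.34-fold higher in T1 than in A10, and FOXC1 was 4.13-fold higher in CA1 and 2.96-fold higher in T1 than in A10 (adjusted p from 5.45e-11 to 3.79e-17). The median log2 difference of the 7 was 0.69 in CA1, 0.58 in T1 and -0.18 in NeoT, each against A10. In CA1 and T1, GATA3 and FOXA1 were higher than in A10. The basal regulators SOX9 and FOXC1 were higher there too, while TP63 and SNAI2 were lower. In NeoT, FOXA1 and TP63 were both lower than in A10 and SNAI2 was higher.

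**Figure D4:**
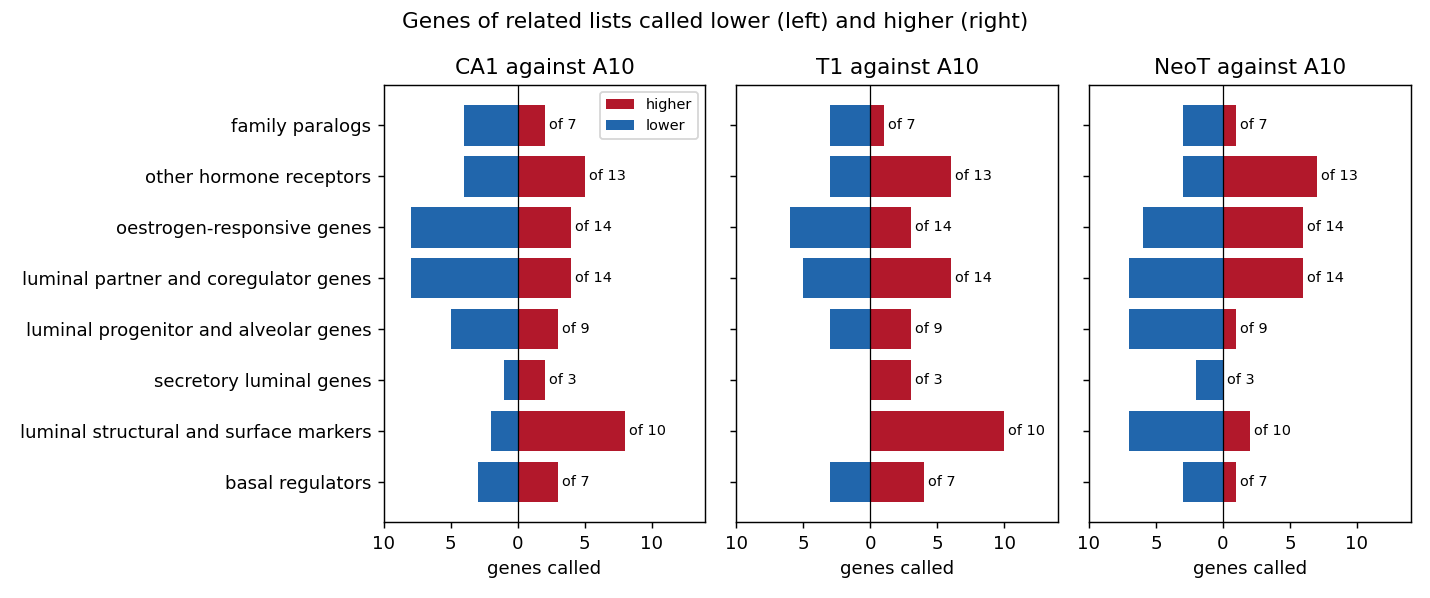
Number of genes called higher (red, right of 0) and lower (blue, left of 0) than A10 in CA1, T1 and NeoT, for 8 lists of related genes, with the number tested beside each bar. All 10 tested luminal structural and surface genes were higher in T1, and 7 of them were lower in NeoT, while the oestrogen-responsive genes fell on both sides in each line.

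**Figure D5:**
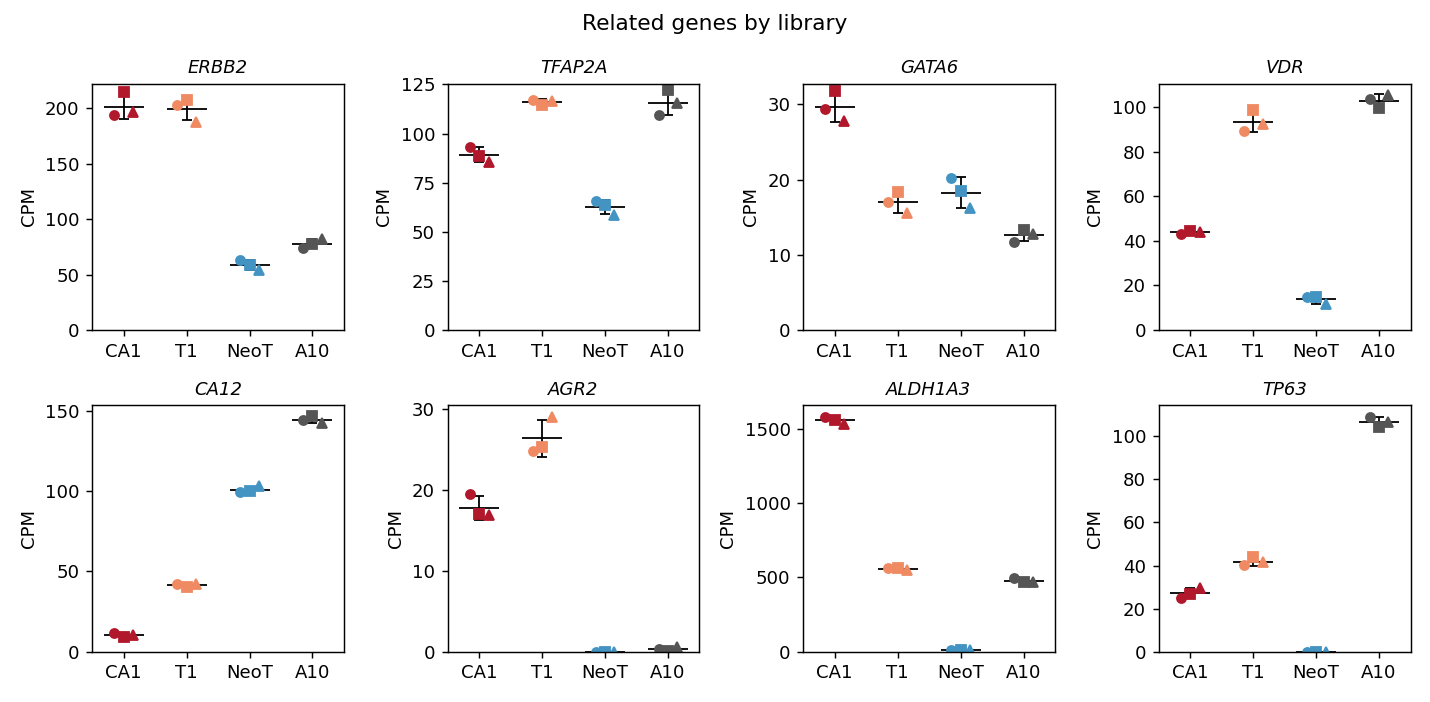
CPM of 8 related genes by library (circle, square and triangle for replicates 1, 2 and 3), with the mean as a long bar and the SD as the error bar, n = 3 a line, each panel on its own linear scale from 0. ERBB2 and AGR2 are highest in CA1 and T1, VDR and TP63 are lowest in NeoT, and CA12 is lowest in CA1.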

How the data were processed

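The deposited values are expected counts, an estimate per gene and library, in 12 libraries, which the authors made with Salmon per the name of the deposited table; per the labels, the library kit was NEBNext Ultra on DNase-treated total RNA. GRCh38 and limma stand in the submitters' processing notes without a role, and versions and annotation are not given in the sources used here. Since 10.1% of values were not whole, each was rounded, a change of at most 0.5. Library totals were 18032399 to 35730423 counts. The expression filter was edgeR's filterByExpr on the line (14417 of 29744 rows kept), CPM used TMM scaling, and edgeR's quasi-likelihood model with robust dispersions (version 4.0.16 in R 4.3.3) took a mean for each line from all 12 libraries. Tests were two-sided, adjusted over all 14417 genes, and called under 0.05. All 6 pairs of lines and the 4 lines together were tested, and the script was tested on simulated data.

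The members, gene lists and tests were chosen with earlier results of these data known. The genes named were the members in every comparison, ERBB2, up to 4 genes of each list with the smallest adjusted p among the 4 lines and a line mean of at least 10 CPM, the 3 protein-coding genes most alike in Pearson r of log2 CPM (prior count 2), and 3 neighbours on each side. BMP7, ARHGAP42, TTC6, MIPOL1, RNPEP, TIMM17A, CAT, ABTB2 and RPS10-NUDT3 were picked from the neighbours, and the 8 genes drawn beside the lists from the lists, after their values were seen. Positions, neighbours and promoters are RefSeq's for GRCh38.p14 (23104 rows matched by symbol and 1854 by synonym), and lengths are GENCODE v29's. The labels call the replicates biological without saying that they came from separate cultures, so p-values measure the spread between these libraries, which may be technical. The labels do not say whether a replicate number is shared between lines, and the main fit did not pair libraries by number. The alternatives tried were upper-quartile or RLE scaling, dropping the filter, requiring 1 CPM in 3 libraries, DESeq2 1.42.0, limma-voom (limma 3.58.1), a fit to the 2 lines compared, a replicate block, each library left out, no rRNA rows, and T1 replicate 1 and NeoT replicate 3 left out together. Tables and plots were made in Python 3.11.15 with matplotlib 3.10.9, numpy 2.4.6 and pandas 2.3.3. Protein sequences were not used here.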

Additional observations from a re-analysis of the deposited data

How the results depend on the processing

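Over the main and 22 other settings, each gene kept the direction of every difference that was called, and the number of the 7 tested genes called stayed within 4 to 5 in CA1 against A10, 5 to 6 in T1 against A10, 5 to 6 in NeoT against A10, 3 to 4 in CA1 against T1, and 6 to 7 in both CA1 and T1 against NeoT. The lower ends, apart from NeoT against A10 and CA1 against T1, came from the filter of 1 CPM in 3 libraries, which left SPDEF untested. With 1 library left out, the counts were 5 in CA1 against A10, 6 in T1 against A10, 5 to 6 in NeoT against A10, 3 to 4 in CA1 against T1 and 7 in each comparison with NeoT. GATA3 in NeoT against A10 (adjusted p = 0.00387 without T1 replicate 1 and NeoT replicate 3 together) and ELF3 in CA1 against T1 were the 2 differences whose call changed; the cause was not tested. The replicate block gave 5, 6, 5, 4, 7 and 7 genes called in the comparisons CA1 with A10, T1 with A10, NeoT with A10, CA1 with T1, CA1 with NeoT and T1 with NeoT, as without it. Libraries with the same replicate number in different lines had correlations of -0.0681 to 0.0920 over 18 pairs, and 5 of 12 libraries correlated best with their own number, so the numbers were not used as pairing. Counts of the other lists moved by over 1.5 times in 42 of 1848 cases, all of them in lists with at most 4 tested genes. Depth limits SPDEF and ESR1, which rest on 14 to 47 and 15 to 35 counts a library where present, and ELF5 and PGR, for which only the floors above can be given.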
